A study of Arabidopsis thaliana with 25 samples.

Results

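A pair of transgenic lines of Arabidopsis thaliana was compared before the transcription factors were switched on: 6 of the series' 25 arrays, chosen by their titles as the PEAR1 and PEAR2 samples in the solvent DMSO. Each line gave 3 arrays. Both lines are in the Col-0 background and carry a fusion with the ligand-binding part of the glucocorticoid receptor (GR), pRPS5A::PEAR1-GR in the first and pRPS5A::PEAR2-GR in the second. Seedlings 4 days old spent 1 h on medium with DMSO, and RNA was taken from their roots, which another label narrows to root tips. All 6 arrays belong to arraying batch A451.

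The other 19 arrays cover the same lines after 2 h with dexamethasone (DEX), with DMSO and the translation inhibitor cycloheximide (DMSO+CHX), or with both drugs (DEX+CHX). Each of those groups has 3 arrays except the PEAR1 line in DEX+CHX, which has 4, and the DMSO+CHX groups lie in another arraying batch, A461. Every group carries a GR fusion, and no line without one was analysed here. The labels do not say how many independent transformants each line stands for, nor whether replicates came from separate plates, so p-values measure only the spread between these samples.

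PEAR1 and PEAR2 are DOF-type transcription factors of the young root phloem. Their proteins move into neighbouring procambial cells and promote the divisions that thicken the vascular cylinder. A protein fused to the GR domain is held outside the nucleus until a steroid such as DEX binds it, and the RPS5A promoter drives strong expression in dividing cells. The DMSO arrays therefore show how far the lines differ when neither fusion has been activated.

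Few array rows differed between the roots of both lines after adjustment for the number of tests. Values are log2 intensities, so a difference of 1 is a 2-fold change, and differences are given as PEAR1 minus PEAR2. Of 17504 array rows with a gene name, 33 differed at an adjusted p below 0.05 (limma on all 25 arrays, Benjamini-Hochberg over those rows), which is 0.189% of the rows tested. The PEAR1 line was higher in 15 rows (0.0857% of those tested) and the PEAR2 line in 18 (0.103%). Fitted on the 6 DMSO arrays alone, the test called only 3 rows, namely AT3G01345, PEAR2 and QQS.

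Correlations between arrays of 1 line ran from 0.989 to 0.991 and between lines from 0.987 to 0.990, so the ranges overlapped. The median difference over all rows was 0.01. The standard error of a row's difference had a median of 0.170, and for 95% of rows the 95% interval of the difference lay within 1 log2 unit of 0. For 49.0% of rows it lay within 0.5, so smaller differences were often not detectable with 3 arrays a line. Without adjustment 1720 rows (9.83%) had a limma p below 0.05, a larger share than that threshold alone would give if no row differed. Small differences that were not called may therefore be present.

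Among the 33 rows, 12 differed by at least 1 log2 unit, 6 in each direction, and 5 of those by at least 2. The smallest called difference was 0.50 in size. A further 32 rows differed by at least 1 unit but were not called. In each of the 33 rows the 3 values of 1 line all lay above the 3 of the other, as they did in 2388 of all rows tested. RefSeq or the study gives a name to 5 of the 31 called rows with a single gene; the other 26 are known here only by their locus, and no function is given for them. Rows that match several genes, 2 of the 33, are counted without a name, except 1 that is given with the gene families.

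**Figure D1:**
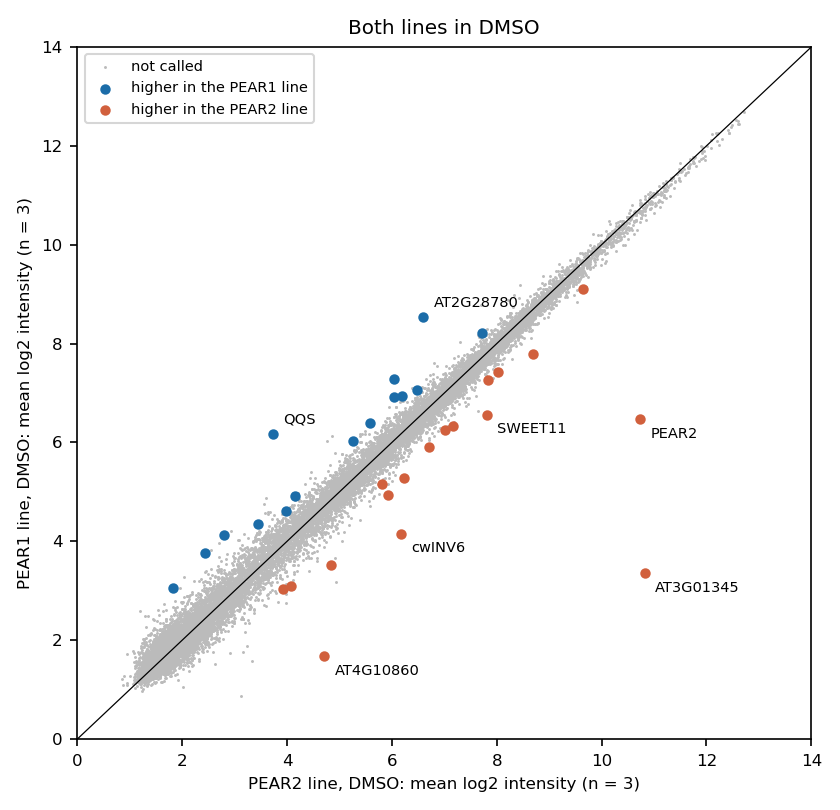
Mean log2 intensity of each of the 17504 rows in the PEAR2 line (x axis) and the PEAR1 line (y axis) in DMSO, n = 3 arrays each; blue and orange points are the 33 rows called by limma and the line marks equality. AT3G01345 and PEAR2 lie farthest from the line, below it.

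The PEAR2 transcript was among the largest differences, in the direction of the labels. On the PEAR2 arrays in DMSO its row read 10.73, 10.74 and 10.74. On the PEAR1 arrays it read 6.46, 6.31 and 6.62. The groups were far apart and the PEAR2 arrays nearly identical. The difference was -4.27 ± 0.12 (SE; limma adjusted p 1.26e-16), or 19.3-fold higher in the PEAR2 line. The probes read the endogenous gene and any matching part of the transgene together, and the share of each was not measured. Whether they also read the related PEAR1 transcript was not tested. No row of the annotation used here names PEAR1, so the other line's transgene could not be checked in the same way.

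PEAR2 also stayed higher in its own line in each other treatment, with differences of -4.83 in DEX, -3.38 in DMSO+CHX and -3.3 in DEX+CHX, each called by limma. In the PEAR1 line, which carries no PEAR2 transgene, its mean level was 6.47 ± 0.15 (SD, n = 3) in DMSO and 8.65 ± 0.19 (SD, n = 3) in DMSO+CHX, a comparison that also spans 1 h against 2 h and both batches. The line difference in DMSO was 0.89 larger in size than that in DMSO+CHX (interaction -0.89 ± 0.16 SE, adjusted p 0.041).

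The largest difference of all rows belonged to AT3G01345, a protein-coding locus with no symbol in RefSeq. The PEAR1 arrays in DMSO read 3.22, 2.75 and 4.09. The PEAR2 arrays read 10.87, 10.71 and 10.90. All 3 PEAR2 arrays were far above the PEAR1 arrays, which spread more among themselves. The difference of -7.47 ± 0.26 (SE; limma adjusted p 1.71e-14) equals a 177-fold higher level in the PEAR2 line.

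AT3G01345 kept this direction in every treatment. In DEX the PEAR1 arrays read 4.06, 3.06 and 4.11 and the PEAR2 arrays 10.83, 10.88 and 10.63. The PEAR2 line's mean was 8.29 ± 0.05 (SD, n = 3) in DMSO+CHX and 9.38 ± 0.21 (SD, n = 3) in DEX+CHX, against 2.61 ± 0.27 (SD, n = 3) and 2.95 ± 0.23 (SD, n = 4) in the PEAR1 line. The PEAR2 arrays lay above the PEAR1 arrays in each treatment, with no overlap.

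QQS was the largest difference in the other direction. It is a small gene found only in Arabidopsis thaliana that affects starch content and the balance of carbon and nitrogen, and its DNA methylation and expression are known to vary between plants of the same genotype. The PEAR1 arrays in DMSO read 6.19, 6.0 and 6.31, and the PEAR2 arrays 3.81, 3.53 and 3.83. The PEAR1 line was higher without overlap, by 2.44 ± 0.23 (SE; limma adjusted p 3.76e-06), or 5.43-fold.

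With DEX, QQS read 6.61, 6.45 and 6.37 in the PEAR1 line against 3.32, 4.07 and 4.76 in the PEAR2 line, a difference of 2.43. In DMSO+CHX the difference was 1.68 and in DEX+CHX 1.75, both called by limma. The tests of whether the difference in DMSO departed from that in DEX or in DMSO+CHX gave adjusted p of 0.996 and 0.447.

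**Figure D2:**
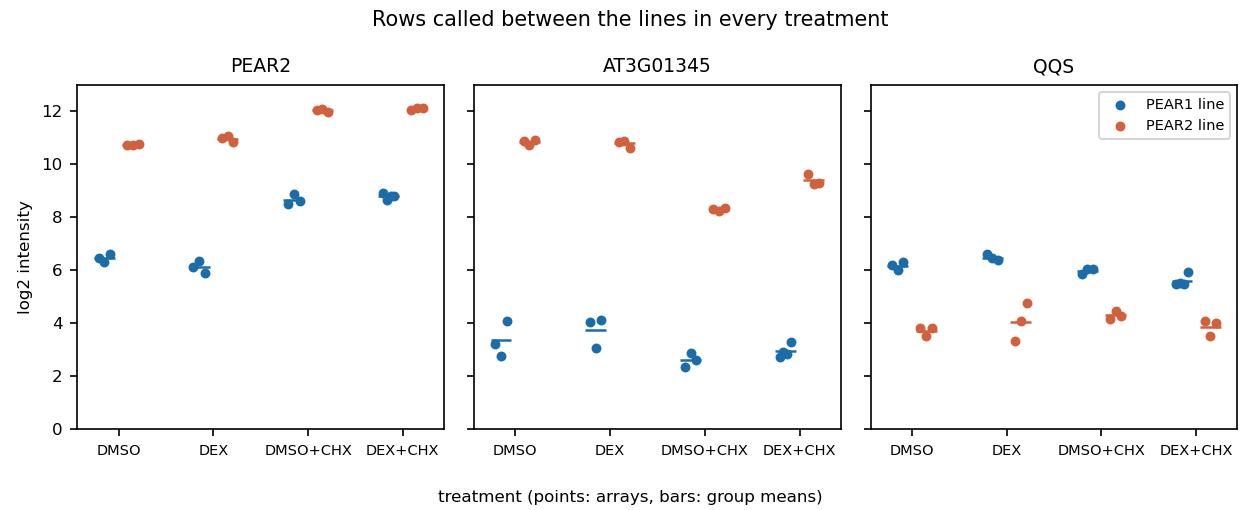
Log2 intensity of PEAR2, AT3G01345 and QQS on all 25 arrays by treatment (x axis); blue points are PEAR1 line arrays, orange points PEAR2 line arrays, and short bars group means (n = 3, or 4 for PEAR1 in DEX+CHX). In every treatment the lines are separated in the same direction.

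These 3 rows were the only ones called in the same direction in all 4 line comparisons, which share no array but do share each row's estimate of spread. Their calls in DMSO also held in each of the 6 fits that left out 1 DMSO array and in every alternative processing tried. With each comparison fitted on its own groups alone, 2 rows instead of 3 were called in all 4 treatments. Of the other 30 rows called in DMSO, 26 were called in no other treatment and 4 in 1 other treatment each.

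Next to PEAR2, the best known gene higher in the PEAR2 line was SWEET11, which encodes a sucrose exporter of phloem parenchyma that helps load sugar into the sieve tubes. Its PEAR1 arrays in DMSO read 6.45, 6.14 and 7.09, and its PEAR2 arrays 7.64, 8.15 and 7.65. The PEAR2 line was higher without overlap, by 2.38-fold (-1.25 ± 0.23 SE, limma adjusted p 0.0211), and PEAR1 replicate 3 came nearest to it.

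SWEET11 was also called in DEX, where the PEAR1 arrays read 6.74, 6.39 and 6.79 and the PEAR2 arrays 7.62, 7.56 and 8.05, a difference of -1.10 ± 0.23 (SE; adjusted p 0.0233). In DMSO+CHX the difference was -0.21 (adjusted p 0.91) and in DEX+CHX -0.64 (adjusted p 0.421). The interaction between DMSO and DMSO+CHX was not called (-1.04 ± 0.32 SE, adjusted p 0.236). Without PEAR1 replicate 1, PEAR1 replicate 2 or PEAR2 replicate 2 the DMSO call was lost.

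Of the 14 SWEET sugar transporter genes with a row, SWEET11 alone was called, and the family's median difference was 0.09. SWEET3 leaned the same way, at -0.66 ± 0.20 (SE; limma adjusted p 0.227), as did SWEET9 at -0.41 ± 0.14 (SE; adjusted p 0.271). The SWEET9 means of 1.62 (PEAR1) and 2.03 (PEAR2) lay below 2.09, the lower quartile of all levels in DMSO. SWEET13, another sucrose exporter, leaned to the PEAR1 line at 0.52 ± 0.18 (SE; adjusted p 0.3), and SWEET14 at 0.53 ± 0.28 (SE; adjusted p 0.557).

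The row named cwINV6, which RefSeq also lists as a fructan exohydrolase, an enzyme that trims fructose chains, read 4.13, 4.24 and 4.11 in the PEAR1 line. In the PEAR2 line it read 5.35, 7.63 and 5.54. The groups did not overlap, but the PEAR2 arrays spread widely, with replicate 2 more than 2 units above the others. The difference was -2.02 ± 0.35 (SE; limma adjusted p 0.0192). With DEX both lines lay at the level of the PEAR1 line in DMSO (4.11 ± 0.42 and 4.18 ± 0.14, SD, n = 3 each). In all arrays with cycloheximide the row read between 9.10 and 9.96 in both lines.

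AT4G10860 had a like spread on the DMSO arrays. It read 1.65, 2.02 and 1.37 in the PEAR1 line against 2.76, 7.06 and 4.31 in the PEAR2 line, again highest in PEAR2 replicate 2. The PEAR1 values lie below 2.09, the lower quartile of all levels in DMSO, so the difference of -3.03 ± 0.57 (SE; limma adjusted p 0.0265) is given without a fold. In every other group of either line its mean was between 1.78 and 2.2.

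PEAR2 replicate 2 was more than 1 log2 unit above both other arrays of its group in 92 rows, against 60 and 43 for replicates 1 and 3. In the PEAR1 line these counts were 94, 61 and 36 for replicates 1 to 3. Fitted without PEAR2 replicate 2, the comparison called 15 rows, 12 of them among the 33. There cwINV6 differed by -1.29 and AT4G10860 by -1.85, and both were still called. Without PEAR1 replicate 1 or PEAR1 replicate 3 both calls were lost. The AT4G10860 call was also lost without PEAR2 replicate 3. What sets single arrays apart was not tested.

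AT1G52342 was called between the lines in DMSO alone. The PEAR1 arrays read 3.60, 3.36 and 3.59 and the PEAR2 arrays 4.99, 4.86 and 4.65. All 3 PEAR2 arrays were higher, by -1.32 ± 0.16 (SE; limma adjusted p 0.000174), or 2.49-fold. In DEX both lines had a mean of 3.5, so the PEAR2 line read as low as the PEAR1 line. The line difference in DMSO departed from that in DEX by -1.32 ± 0.22 (SE; adjusted p 0.017) and from that in DMSO+CHX by -1.77 ± 0.22 (SE; adjusted p 0.0008).

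AT1G63740 was called in opposite directions in DMSO and DEX. In DMSO it read 6.17, 6.55 and 6.26 in the PEAR1 line against 7.24, 7.02 and 7.22 in the PEAR2 line, which was the higher one by 1.79-fold (-0.84 ± 0.12 SE, limma adjusted p 0.00121). In DEX it read 6.77, 6.92 and 6.73 in the PEAR1 line against 6.13, 6.49 and 6.32 in the PEAR2 line (0.50, adjusted p 0.047). Neither pair of groups overlapped, and the change in the line difference was -1.33 ± 0.16 (SE; adjusted p 0.0009).

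AT5G66650 read 6.14, 5.82 and 5.73 in the PEAR1 line against 6.57, 6.72 and 6.82 in the PEAR2 line, without overlap. The difference was -0.80 ± 0.12 (SE; limma adjusted p 0.00349). With AT1G52342 and AT1G63740 it completes the 6 genes, beside AT3G01345, PEAR2 and QQS, that were called in each fit that left out 1 DMSO array. The other 27 rows lost their call without at least 1 array.

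The remaining loci higher in the PEAR2 line differed by 0.55 to 1.00 in size. AT5G02000 read 4.71, 4.90 and 5.18 in the PEAR1 line against 5.99, 5.79 and 6.02 in the PEAR2 line, and its call was lost whichever of the 6 arrays was left out. AT4G39580, AT3G50140, AT1G65570 and AT1G01240 differed by -0.97, -0.94, -0.89 and -0.88. AT2G37700 and AT1G33330 differed by -0.77 and -0.65.

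KUA1 (AT5G47390), a MYB-related transcription factor known to promote leaf cell expansion, was 1 of 3 small differences of this direction. It read 7.28, 7.32 and 7.22 in the PEAR1 line against 7.88, 8.06 and 7.54 in the PEAR2 line. The groups did not overlap, and the difference was -0.55 ± 0.11 (SE; limma adjusted p 0.0446). The KUA1 call was kept in only 1 of the 6 fits that left out 1 DMSO array and in 3 of 8 other settings. AT3G16350 differed by -0.58 and AT5G58530 by -0.55.

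**Figure D3:**
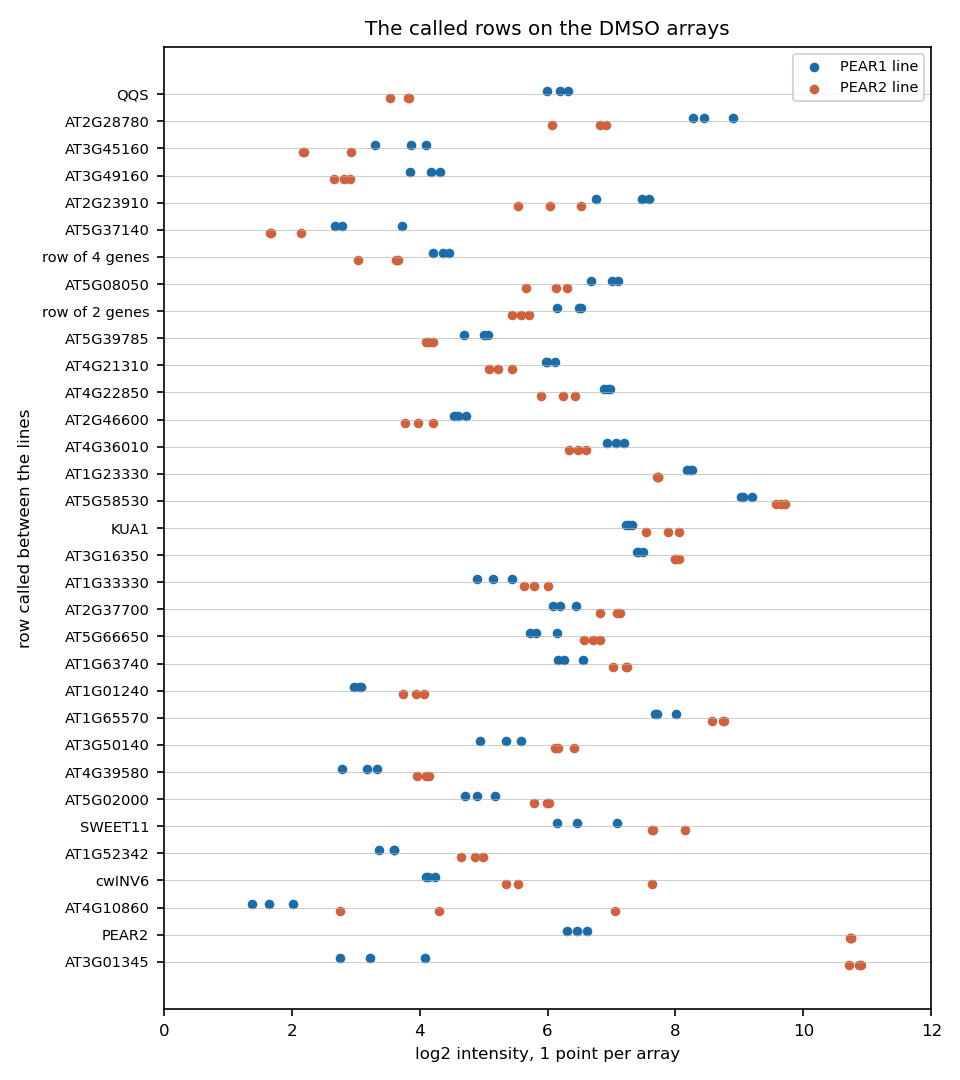
Log2 intensity of the 33 called rows on the 6 DMSO arrays, 1 point per array (x axis) and 1 row per line (y axis), blue for the PEAR1 line and orange for the PEAR2 line, ordered by the line difference. The lines do not overlap in any row, and the PEAR2 arrays spread most for AT4G10860 and cwINV6.

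Among loci higher in the PEAR1 line, AT2G28780 came after QQS. It read 8.89, 8.28 and 8.45 in the PEAR1 line against 6.91, 6.82 and 6.07 in the PEAR2 line. The groups were separated by more than 1 unit, and the difference was 1.94 ± 0.33 (SE; limma adjusted p 0.0147), or 3.84-fold. It was called again in DEX+CHX, by 1.65 (adjusted p 0.032), and not in DEX, where the difference was 0.63 (adjusted p 0.51), nor in DMSO+CHX (-0.08).

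AT3G49160 also differed in DMSO and in DEX+CHX. In DMSO it read 4.18, 4.32 and 3.85 in the PEAR1 line against 2.67, 2.82 and 2.92 in the PEAR2 line, a 2.49-fold difference without overlap (1.32 ± 0.26 SE, limma adjusted p 0.0311). Its DMSO call was lost whichever of the 6 arrays was left out and in 5 of 8 other settings. In DEX+CHX it read 5.48, 5.82, 5.52 and 5.38 in the PEAR1 line against 4.37, 4.22 and 3.99 in the PEAR2 line (1.35, adjusted p 0.026).

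AT3G45160 read 4.1, 3.31 and 3.86 in the PEAR1 line against 2.92, 2.18 and 2.2 in the PEAR2 line. The difference in DMSO was 1.32 ± 0.24 (SE; limma adjusted p 0.0192), and in DEX it was -0.45, so the change between them was 1.78 ± 0.33 (SE; adjusted p 0.034). The PEAR2 line was at the PEAR1 level in DEX (means of 4.00 and 3.54).

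AT2G23910 was higher in the PEAR1 line by 1.24 ± 0.22 (SE; limma adjusted p 0.0192), with 7.58, 6.76 and 7.48 against 6.04, 5.54 and 6.53. AT5G37140 had the same difference near the low end of the array, with 2.78, 3.73 and 2.68 against 1.68, 2.14 and 1.66. Neither locus had overlapping groups in DMSO, and neither was called in another treatment.

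The other single-gene rows higher in the PEAR1 line differed by under 1 unit. They are AT5G08050 (0.90), AT5G39785 (0.77), AT4G21310 (0.77), AT4G22850 (0.75), AT2G46600 (0.63), AT4G36010 (0.59) and AT1G23330 (0.50). AT1G23330 had the smallest called difference and very even arrays, at 8.25, 8.18 and 8.23 against 7.71, 7.73 and 7.73. In DEX it read 7.44, 7.43 and 7.33 against 7.55, 7.78 and 7.76, and its line difference departed from that in DMSO by 0.79 ± 0.14 (SE; limma adjusted p 0.017).

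**Figure D4:**
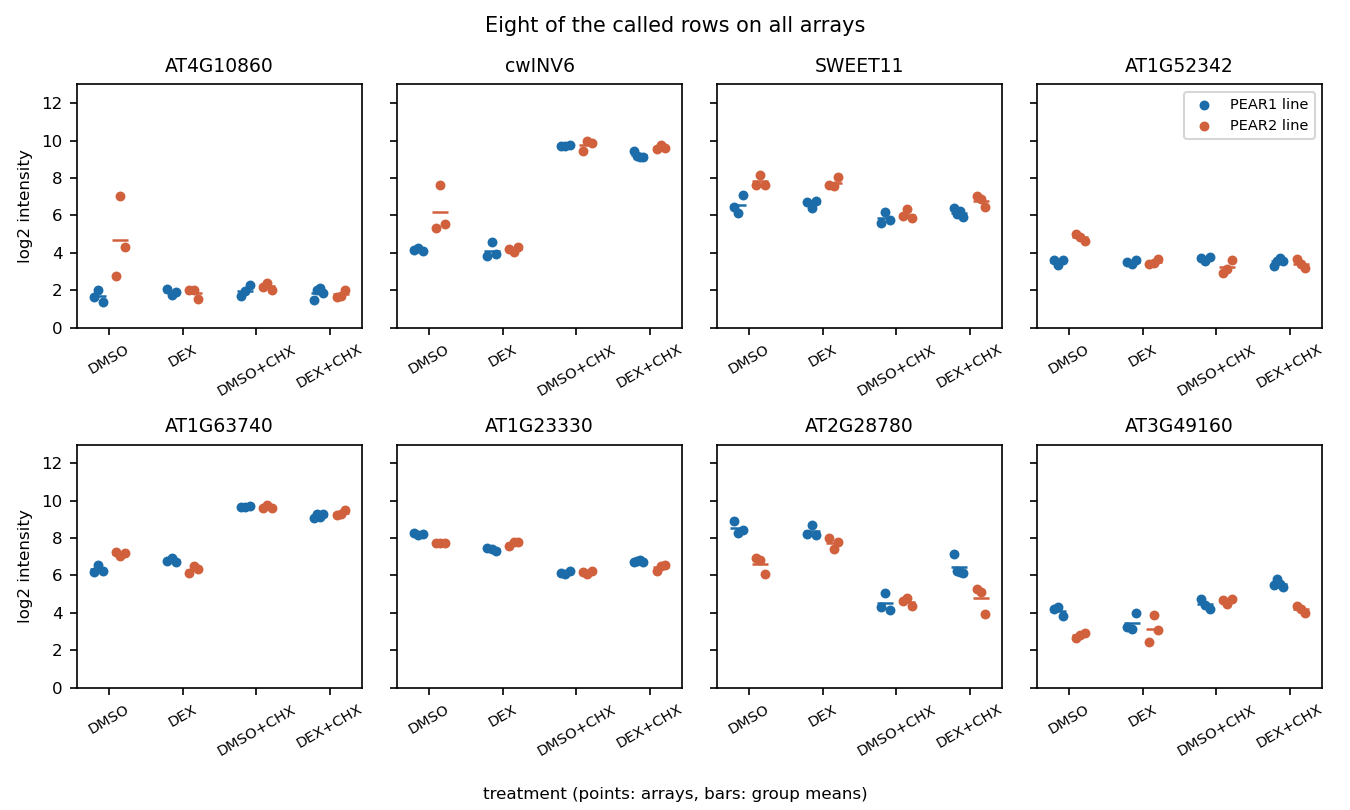
Log2 intensity of 8 called rows on all 25 arrays by treatment (x axis); blue points are PEAR1 line arrays, orange points PEAR2 line arrays, short bars group means. AT4G10860, cwINV6 and AT1G52342 were called between the lines in DMSO only, and AT1G63740 changes direction between DMSO and DEX.

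The repeat of the comparison on other arrays was small. The lines differed in 128 rows in DEX (0.731% of rows), 20 in DMSO+CHX (0.114%) and 30 in DEX+CHX (0.171%). The rows shared with DMSO in the same direction were 4 in DEX (12.1% of the DMSO list and 3.12% of the DEX list), 3 in DMSO+CHX (9.09% and 15%) and 5 in DEX+CHX (15.2% and 16.7%). In DMSO+CHX, where the fusions are also not activated, the rows called again were AT3G01345, PEAR2 and QQS.

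Of the rows not shared, the difference had the sign seen in DMSO in 16 of 29 in DEX, 11 of 30 in DMSO+CHX and 14 of 28 in DEX+CHX. The line difference itself departed between DMSO and DMSO+CHX in 26 rows (0.149%), 10 of them among the 33. Between DMSO and DEX it departed in 19 rows (0.109%), 5 of them among the 33. The 33 rows were chosen by the DMSO difference that both tests contain. An excess of departures among them can follow from that choice and is no independent evidence. DMSO lasted 1 h and the other treatments 2 h, so drug and time cannot be told apart, nor can batch for DMSO+CHX.

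**Figure D5:**
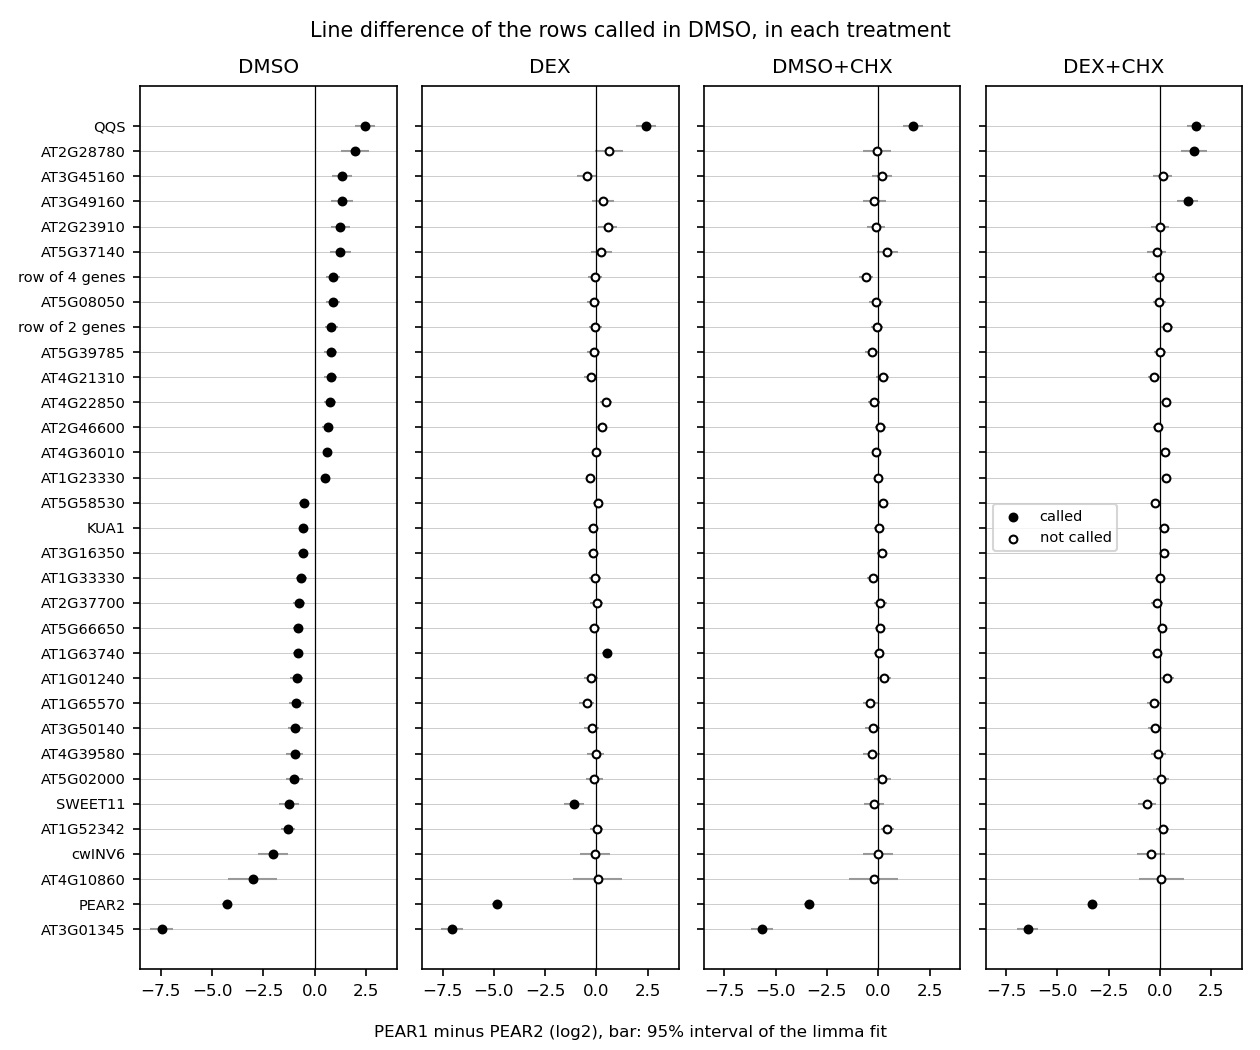
PEAR1 minus PEAR2 (x axis, log2) in each of 4 treatments for the 33 rows called in DMSO (y axis), with 95% intervals of the limma fit as bars; filled points are called in that treatment. Outside DMSO most points lie near 0, while QQS, PEAR2 and AT3G01345 keep their place.

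Set beside the DEX levels, 15 of the 33 rows had both DEX groups nearer to the lower DMSO line and 10 had both nearer to the higher one. In 7 rows each line's DEX mean lay nearest to its own DMSO mean, and AT1G63740 was the exception with each line nearer to the other. Among rows higher in the PEAR1 line these counts were 8, 5 and 2, and among rows higher in the PEAR2 line 7, 5 and 5. The DMSO means used as the yardstick here also served to choose the 33 rows, by their difference. DEX groups of both lines falling on the same side can follow from that choice. The counts are therefore no independent evidence, and counts over all rows were not set beside them.

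Outside the transgene and the largest differences, few genes of the lists chosen for root biology were called. Of 232 listed genes 47 had a row that could be matched by name, and 4 were called (8.51%, beside 0.189% of all rows): QQS for the PEAR1 line, and PEAR2, SWEET11 and AT3G01345 for the PEAR2 line. PEAR2 is a transgene, and QQS and AT3G01345 had been listed with their differences known, so this share is no independent evidence. The listed genes' median difference was 0.05, beside 0.01 over all rows. Since most listed genes have no named row, cell types are covered thinly, and in bulk root RNA fewer cells of a type and less RNA per cell cannot be told apart.

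Of 5 phloem genes only SWEET11 was called. The peptide gene CLE45, which restrains protophloem formation, differed by 0.42 ± 0.23 (SE; limma adjusted p 0.579), and CLE25, another phloem peptide gene, by 0.19 ± 0.17 (SE; adjusted p 0.784). Among 5 cambium and xylem regulators none was called. CLE41 and CLE44, whose peptide keeps cambial cells dividing, differed by 0.20 ± 0.19 and 0.34 ± 0.21 (SE; adjusted p 0.796 and 0.657).

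None of 9 auxin-responsive genes was called. LBD16, a transcription factor of lateral root founder cells, came nearest, at 6.13 ± 0.22 (SD, n = 3) in the PEAR1 line against 5.38 ± 0.32 (SD, n = 3) in the PEAR2 line. Its difference was 0.75 ± 0.18 (SE; limma adjusted p 0.105). With an intensity trend and robust prior the adjusted p was 0.0406, and no other setting called LBD16. The limma adjusted p was 0.526 with the 6 DMSO arrays alone and 0.0794 to 0.309 with 1 array left out. Neither of 2 cytokinin response regulators was called. ARR15 differed by 0.12 ± 0.47 (SE; limma adjusted p 0.966) and RR16 by 0.12 ± 0.20 (SE; adjusted p 0.909). The RR16 means of 1.90 (PEAR1) and 1.78 (PEAR2) lay below 2.09, the lower quartile of all levels in DMSO. Those of ARR15, 2.43 (PEAR1) and 2.31 (PEAR2), lay little above it. At such levels and errors these rows could hardly show a difference, so they do not show that the lines are alike.

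The 8 root hair genes had a median difference of -0.31, and none of them passed even an unadjusted p of 0.05. The farthest was AT4G08410 at -0.51 ± 0.25 (SE; unadjusted limma p 0.0506). RCA, the activase of the photosynthetic enzyme Rubisco and the only green tissue gene with a row, differed by -0.11 ± 0.16 (SE; adjusted p 0.894). None of 6 early stress genes was called, nor the clock gene GI (0.14 ± 0.09 SE, adjusted p 0.667).

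None of 4 genes of the root's ER bodies, which hold beta-glucosidases that hydrolyse defence glucosides, was called. BGLU22 differed most, at 10.64 ± 0.13 (SD, n = 3) in the PEAR1 line against 11 ± 0.12 (SD, n = 3) in the PEAR2 line, without overlap. Its difference was -0.35 ± 0.13 (SE; 95% interval -0.62 to -0.09, limma unadjusted p 0.0122, adjusted p 0.341). BGLU28, which marks sulfur shortage, read 3.12 ± 0.63 (SD, n = 3) in the PEAR1 line against 2.42 ± 0.29 (SD, n = 3) in the PEAR2 line (0.70 ± 0.29 SE, adjusted p 0.432). BHLH101, a regulator of iron uptake, differed by 0.28 ± 0.29 (SE; adjusted p 0.817).

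Across 16 gene families recognised by their symbols, 388 rows that each name 1 gene, SWEET11 was the only call (0.258%). Of these rows 42 (10.8%) had an unadjusted limma p below 0.05. These shares are near the 0.189% and 9.83% of all rows. The median difference over the 388 rows was 0.03. Rows that match several genes could not count toward a family. The called row shared by UGT84A1, a UDP-glycosyltransferase gene, and AT4G15475 was therefore not counted. Its difference was 0.81 ± 0.15 (SE; limma adjusted p 0.0213), higher in the PEAR1 line. The farthest uncalled members were AGL49, of the MADS-box transcription factors, at -1.24 ± 0.38 (SE; limma adjusted p 0.229), and LCR20, a gene for a small cysteine-rich peptide, at 0.93 ± 0.29 (SE; adjusted p 0.242).

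The called loci lay on every nuclear chromosome. By RefSeq they fall on chromosomes 1 to 5 as 6, 4, 7, 5 and 9 of the 31 single-gene rows. The share of tested rows on each chromosome was not set beside these counts. In the RefSeq gene order no 2 of them were neighbours. Coding genes without a named row are part of that order but could not be called. The closest pairs, PEAR2 with AT5G02000 and SWEET11 with AT3G49160, have 45 coding genes between them. AT2G37700 lies 11 coding genes from PEAR1.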

How the data were processed

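Total RNA from roots was labelled with biotin and hybridised to single-colour Affymetrix arrays, per the labels' protocols. The authors deposited log2 intensities made with RMA, per the submitters' processing notes; the sources used here give neither its version and options nor the array's genome build. Without detection calls, low values do not show absence. Of 38408 table rows, 16746 name 1 gene in the platform annotation, 758 several and 20904 none; 16601 of the first were matched to RefSeq TAIR10.1, used for names and gene order only.

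Group means of line and treatment were fitted over all 25 arrays with limma 3.58.1 in R 4.3.3 (lmFit, eBayes) and contrasts taken between them, with Benjamini-Hochberg adjustment over the 17504 rows with a gene and calls at an adjusted p below 0.05. The fit was tested on simulated data. Figures were drawn with matplotlib 3.10.9. The members and lists were chosen with earlier results of these data known. The rule named the 14 single-gene called rows with the largest difference in each direction, rows called in all 4 treatments, the largest interactions and called list members. KUA1, AT3G16350, AT5G58530 and AT1G33330, and uncalled genes, were named after their values were seen. Families were defined by symbol stems, because words in descriptions also match clone names, a choice made after the reference was seen. Of the 18 lists, 5 had no gene with a usable row, among them those for endodermis, root cap and meristem, cell cycle and heat shock, and 25 listed genes were left out because RefSeq does not pair their name and locus.

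Replicate numbers are in the labels. Same-numbered DMSO arrays of the lines did not deviate together (correlations of -0.03, -0.01 and -0.01). The other groups were not compared in this way, so whether the numbers pair samples is not settled. The main fit did not pair them. Alternatives were the compared groups alone, a trended robust prior, a filter leaving out the lowest 33.3% of rows, quantile normalization, a shift to the 75th percentile, array weights, the replicate block, all table rows and each array left out. The number of arrays limits the precision.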

Additional observations from a re-analysis of the deposited data

Results flagged for a closer look

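In PEAR1 DEX+CHX, a group of 4 arrays, a different array stood above the other 3 for each of 3 called genes. The gap to the nearest array over the group's range was 0.975 for KUA1 (replicate 2), 0.924 for AT2G28780 (replicate 1) and 0.867 for QQS (replicate 4). This ratio does not give the size of the gap, which was very small for KUA1. In order of replicate KUA1 read 8.54, 8.62, 8.54 and 8.54. AT2G28780 read 7.16, 6.22, 6.18 and 6.14, and QQS read 5.49, 5.54, 5.47 and 5.94. Each of the 33 called rows was screened in this group, and chance gives about 1 such flag in 20 rows screened. The cause was not tested.

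The line difference in DMSO departed from that in DMSO+CHX, by the limma interaction test, for 10 rows called in DMSO. The interaction was below 0 for AT1G52342 (-1.77), AT1G01240 (-1.15), AT5G66650 (-0.89), PEAR2 (-0.89), AT1G63740 (-0.86), AT5G58530 (-0.80) and AT3G16350 (-0.76). It was above 0 for AT5G39785 (1.09), AT4G36010 (0.71) and the row of 4 genes (1.49). Between DMSO and DEX it was -1.33 for AT1G63740, -1.32 for AT1G52342, 0.79 for AT1G23330, 1.05 for AT4G21310 and 1.78 for AT3G45160. Drug, time and, for DMSO+CHX, batch cannot be told apart in these tests. The rows were chosen by the DMSO difference that each test contains, so departures among them are no independent evidence.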

How the results depend on the processing

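AT3G01345, PEAR2 and QQS kept their DMSO call and direction under every alternative run. The 3 rows called in all 4 treatments became 2 with the compared groups alone and stayed 3 in number under the other settings. The 33 rows called in DMSO became 3 with the 6 DMSO arrays alone (3 with a difference of at least 1, against 12), 59 with an intensity trend and robust prior (all 33 kept), 17 with array weights and 23 with the replicate block. Leaving out 1 DMSO array gave 9 (PEAR1 replicate 1) to 49 (PEAR1 replicate 2) calls, and 6 to 16 with a difference of at least 1; without PEAR1 replicate 3 there were 12, without PEAR2 replicate 1 21, without PEAR2 replicate 2 15 and without PEAR2 replicate 3 20. With all table rows tested the split was 43 higher with PEAR1 and 20 with PEAR2, 37 of them in rows without a gene name, 30 and 7. RCA ranged from -0.211 to 0.0499 with 1 array left out and reversed only without PEAR1 replicate 2. LBD16 was called with the trended prior alone (limma adjusted p 0.0406).

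In DEX the 128 calls became 22 with the compared groups alone, 56 with array weights, 85 with all table rows and 48 to 132 with 1 array left out. In DMSO+CHX the 20 became 61 with array weights and 9 to 34 with 1 array left out. In DEX+CHX the 30 became 7 with the compared groups alone, 66 with the trended prior, 67 with array weights, 9 with the replicate block, 6 with all table rows and 6 to 18 with 1 array left out. The 26 interactions of DMSO and DMSO+CHX became 15, 45, 12 and 9 with the compared groups alone, the trended prior, quantile normalization and all table rows, and 4 to 29 with 1 array left out. The 19 interactions of DMSO and DEX became 2, 49, 37 and 10 with the compared groups alone, the trended prior, the filter on low rows and array weights, and 5 to 56 with 1 array left out. The causes were not tested, beyond the fewer arrays or other set of rows that a setting uses.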
